A study of Mus musculus with 2 samples.

Results

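Expression of 9 genes of the tumor necrosis factor (TNF) superfamily was examined in sorted fetal mouse lung cells: the receptors Tnfrsf9, Tnfrsf18, Tnfrsf4, Tnfrsf25, Tnfrsf1b, Tnfrsf13c and Tnfrsf23, and the ligands Tnfsf11 and Tnfsf10. They were chosen by name from the 32285 genes of the count matrix, and the names had been selected on measured values of these same cells. Their levels by cell class and their differences between the groups in ILC2-like cells are therefore descriptions. The fit over all genes also gave calls for them in ILC2-like cells, and these calls are stated as part of the description and are not evidence from other samples.

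Single-cell RNA sequencing was performed on live (FVD-) CD45+ Lin- ST2+ cells sorted from lungs of wild-type fetuses at gestation day 18. From gestation day 12 their mothers, 9 weeks old, were given PBS or dexamethasone (DEX) at 1.3 µg/ml in the drinking water, DEX being an artificial glucocorticoid hormone. Lungs were pooled within each litter, from 8 and 9 fetuses for the litters DEX-1 and DEX-2 and 5 and 8 for PBS-1 and PBS-2, and each litter carried its own hashtag antibody. Litters served as replicates, 2 in each group.

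After filtering, 7268 cells carried 1 hashtag, 1737 to 1890 per litter, with 18665955 to 23660294 UMIs (unique molecular identifiers, each standing for 1 captured RNA molecule) per litter. Although the gate was set for group 2 innate lymphoid cells (ILC2s), only 2047 cells were ILC2-like by their markers, such as Gata3, Il1rl1 and Il7r. All 8 ILC2 markers were found in at least 25% of these cells, on average in 79.8%, whereas T cell markers averaged 5.29%. Another 2313 cells were mast-like, 493 basophil-like and 199 B-like, and endothelial-, epithelial- and mesenchymal-like cells were also present. Free RNA was common: a UMI of Sftpc, a gene of the lung epithelium, was found in 75.1 to 78.4% of ILC2-like cells per litter.

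TNF superfamily ligands are mostly trimeric proteins at the cell surface, and their receptors act through TRAF adaptors or death domains on NF-kB signaling, survival or cell death. The receptors 4-1BB (Tnfrsf9), GITR (Tnfrsf18) and OX40 (Tnfrsf4) are costimulators best known from activated T cells, and GITR and DR3 (Tnfrsf25) also act on ILC2s. RANKL (Tnfsf11) drives osteoclast and lymph node development. The gene Tnfrsf1b encodes TNF receptor type II, Tnfsf10 encodes the death ligand TRAIL, Tnfrsf13c encodes the receptor for the B cell survival factor BAFF, and Tnfrsf23 encodes a mouse decoy receptor for TRAIL.

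By GENCODE M21 (GRCm38), 5 of the 9 genes lie on chromosome 4, as do 9 of 46 listed receptors and ligands of the family. These are Tnfrsf1b at chr4:145213463-145246870 on the minus strand, and on the plus strand Tnfrsf9 at chr4:150914562-150946102, Tnfrsf25 at chr4:152115934-152120119, Tnfrsf4 at chr4:156013843-156016612 and Tnfrsf18 at chr4:156026164-156028895. The end of Tnfrsf4 and the start of Tnfrsf18 are 9552 bases apart, with 2 other genes wholly between them. The others are Tnfsf10 at chr3:27317028-27342427 on the plus strand, and, on the minus strand, Tnfrsf23 at chr7:143665809-143685872, Tnfsf11 at chr14:78277445-78308043 and Tnfrsf13c at chr15:82221743-82224369. Tnfrsf9, Tnfrsf18 and Tnfrsf23 each overlap a gene of the opposite strand (Camta1, Gm16008 and E230032D23Rik).

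Promoter windows from RefSeq (GRCm38.p6), 250 bases before to 50 after a start and read 5′ to 3′ on the plus strand, are shown for Tnfrsf9, with its 2 starts, and Tnfrsf18, the genes called higher in DEX in ILC2-like cells, and for Tnfrsf4, the neighbor of Tnfrsf18, whose litters overlapped. The windows are chr4:150919905-150920204 and chr4:150927749-150928048 for Tnfrsf9, chr4:156026072-156026371 for Tnfrsf18 and chr4:156013445-156013744 for Tnfrsf4. Capitals mark matches to the searched motifs.
Tnfrsf9, upstream start: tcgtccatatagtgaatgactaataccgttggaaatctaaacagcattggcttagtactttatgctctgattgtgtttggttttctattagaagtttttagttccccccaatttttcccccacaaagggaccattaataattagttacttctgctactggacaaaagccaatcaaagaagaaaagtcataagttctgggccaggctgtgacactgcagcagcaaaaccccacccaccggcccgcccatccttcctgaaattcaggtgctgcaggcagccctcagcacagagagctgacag
Tnfrsf9, downstream start: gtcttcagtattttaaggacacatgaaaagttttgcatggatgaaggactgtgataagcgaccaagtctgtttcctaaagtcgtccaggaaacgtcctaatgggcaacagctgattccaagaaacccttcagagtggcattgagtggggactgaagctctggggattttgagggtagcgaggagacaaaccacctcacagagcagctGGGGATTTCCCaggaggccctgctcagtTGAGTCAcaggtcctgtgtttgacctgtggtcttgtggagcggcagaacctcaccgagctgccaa
Tnfrsf18: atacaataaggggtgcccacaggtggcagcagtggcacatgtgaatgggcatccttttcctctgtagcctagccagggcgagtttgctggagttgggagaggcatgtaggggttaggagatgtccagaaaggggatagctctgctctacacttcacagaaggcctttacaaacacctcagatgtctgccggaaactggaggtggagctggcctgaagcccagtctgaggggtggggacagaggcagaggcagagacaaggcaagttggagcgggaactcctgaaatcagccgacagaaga
Tnfrsf4: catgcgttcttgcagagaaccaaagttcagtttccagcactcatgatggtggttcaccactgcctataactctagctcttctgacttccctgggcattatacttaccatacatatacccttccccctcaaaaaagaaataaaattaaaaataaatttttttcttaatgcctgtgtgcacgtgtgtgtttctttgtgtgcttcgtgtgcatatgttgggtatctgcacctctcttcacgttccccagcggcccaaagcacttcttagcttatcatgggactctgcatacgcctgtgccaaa

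Except where stated, motifs were searched on both strands in the 11 promoter windows of the 9 genes and in 32851 windows of all genes. AP-1 (TGANTCA) was found in 1 of 11, the downstream Tnfrsf9 window, and in 7.81% of all windows. The NF-kB consensus was found in the same window, where 2 matches overlap, and in 4.51% of all windows. The half-site AGAACA of the glucocorticoid response element (GRE), which can lie within a full element, was found in 1 of 11, a Tnfrsf25 window, and in 19.0% of all. The GATA factor motif in the form AGATAA, present in 11.2% of all windows, and the full palindromic GRE, present in 0.0913%, were in 0 of the 11. Unlike the other motifs, the full GRE was searched in the plus-strand reading only. A match is a description of these letters, and 0 matches speaks only of these windows.

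Levels are given as CPM, the UMIs of a gene summed over the cells of a class in a litter and scaled to the total of that class and litter. Where a pair of values is given for a group, litter 1 comes first. Because 1 UMI counts 1 molecule captured at its 5′ end, they are not divided by gene length, and levels are compared within a gene, between classes or litters. A count of 3, used as the floor of detection, corresponds to 0.578 to 0.792 CPM in ILC2-like, 0.683 to 0.848 in mast-like, 2.12 to 4.17 in basophil-like and 14.7 to 20.9 in B-like cells. These floors and all shares of cells cover counting error only.

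Among the named classes, the mean level of the 4-1BB gene Tnfrsf9 was highest in mast-like and ILC2-like cells. In ILC2-like cells its level was 181 and 181 CPM in the DEX litters and 80.6 and 71.5 CPM in the PBS litters. Neither PBS litter reached the DEX litters, with a fitted log2 fold change of 1.27 ± 0.09 (SE, n = 2 litters per group), or 2.40-fold. Counted in cells thinned to 2000 UMIs each, a Tnfrsf9 UMI was found in 24.3 and 24.3% of ILC2-like cells of the DEX litters and in 13.6 and 11.4% of those of the PBS litters, and without thinning in 42.1 and 48.4% against 29.1 and 30.9%. In B-like cells, which should lack it, the thinned share was 0% in 3 litters and 4.08% in PBS-2, at a median depth of 3481 UMIs there against 7246 over all ILC2-like cells. The B-like cells of PBS-2 also held 2121 CPM of mast cell markers, against 76.6 to 972 in the other litters. Their Tnfrsf9 level rests on 6 UMIs, and the part of mast cell RNA in it was not tested.

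Within the ILC2-like cells, 5 sub-clusters were found without use of the TNF family genes, and Tnfrsf9 was higher in both DEX litters than in both PBS litters in 5 of 5. Its mean over the 4 litters ran from 65.7 ± 27.3 CPM (SD, n = 4) in sub-cluster 1, led by DNA replication genes (Ung, Mcm2), to 360.0 ± 220.5 in sub-cluster 4, led by Pla2g7, Atp4a and Hdc. The litters of sub-cluster 4 stood at 632 and 446 CPM in the DEX litters and 196 and 166 CPM in the PBS litters. Mast cell and basophil marker sums were also higher in both DEX litters there. The summed level of 8 mast cell markers was 789 and 2086 CPM in the DEX litters and 336 and 679 CPM in the PBS litters. Of these markers, 5 of 8 were higher in both DEX litters and 1 of 8 was at 0 in all. Within each group the mast cell sum was higher in the litter with the lower Tnfrsf9 level. The 7 basophil markers summed to 833 and 869.7 CPM in the DEX litters against 594 and 363. Of these, 2 of 7 were higher in both DEX litters and 2 of 7 were at 0. The share of all genes that were higher in both DEX litters was not counted. The part of both marker lists in the Tnfrsf9 value of this sub-cluster was not tested.

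Over all ILC2-like cells the mast cell marker sums of the groups overlapped, at 297 and 417 CPM in DEX against 310.0 and 345 in PBS litters, beside 47889 to 58492 CPM in mast-like cells. The basophil marker sums did not overlap, at 102 and 114 CPM in DEX against 96.9 and 52.2 in PBS litters, with 1 of 7 markers higher and 1 of 7 lower in both DEX litters. The share of all genes that stood apart in either direction was not counted here either. The basophil marker sums were also higher in the DEX litters in sub-cluster 3, at 119 and 103 CPM against 53.8 and 31.2. The same held in sub-cluster 2, at 35.5 and 53.2 CPM against 29.7 and 29.9, with 4 of 7 markers at 0 in all litters. In sub-clusters 0 and 1 the sums overlapped. The list holds genes shared with mast cells (Gata2, Fcer1a, Ms4a2 and Hdc), and Hdc was among the leading genes of sub-cluster 4. Over all ILC2-like cells Mcpt8, a basophil gene of the list, had 0 UMIs in DEX-1, DEX-2 and PBS-1 and 1 in PBS-2. The part of the basophil markers in the Tnfrsf9 and Tnfrsf18 values was not tested. The log2 ratio of mean Tnfrsf9 CPM between DEX and PBS litters was 1.23 in sub-cluster 0, led by mitotic genes (Ube2c, Birc5), 1.05 in sub-cluster 1, 1.55 in sub-cluster 3 (Ctla2b, Calca) and 1.57 in sub-cluster 4. It was 0.65 in sub-cluster 2 (Cd7, Ms4a4b, Tcf7), where PBS-2 at 117 CPM came near DEX-1 at 125. By CPM the DEX litters were thus the higher ones in each sub-cluster, in the same cells on which the names had been selected. In sub-cluster 2 the share of cells with a Tnfrsf9 UMI overlapped, at 33.9 and 32.4% in DEX against 18.8 and 35.9% in PBS litters. In thinned cells it did not, at 20.5 and 15.4% against 6.56 and 12.7%. In the fit on cells outside sub-clusters 0 and 1, in which cell cycle genes were high, the log2 fold change was 1.25.

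In mast-like cells Tnfrsf9 stood at 299.8 and 169 CPM in the DEX litters and 175 and 115 CPM in the PBS litters. The groups overlapped, since DEX-2 lay under PBS-1, and the fitted log2 fold change of 0.71 ± 0.26 had an adjusted p of 0.744 by edgeR's quasi-likelihood test with Benjamini-Hochberg adjustment over all genes. Without DEX-1 it was 0.24, and with no filter on low genes it passed the threshold at 0.72. In mast-like cluster 0, led by H19, Atp8a2 and Igf2, the litters did not overlap, at 329 and 212 CPM in DEX against 207 and 136 in PBS, a gap of 5 CPM between the nearest litters. In clusters 1 (Syngr1, Cma1) and 2 (Mrgprb1, Tnf) they overlapped. Basophil-like cells held 16.6 and 11.3 CPM in the DEX litters and 9.97 and 9.74 CPM in the PBS litters, and mesenchymal-like cells 105 and 42.9 CPM against 33.1 and 25.8 CPM. The litters did not overlap in these classes either, where the gene was not tested and the part of free RNA or doublets was not tested. An unnamed cluster of 414 cells led by Gzmb and Scin, with Cma1 in 86.0% of cells, also carried Tnfrsf9. It held 99.7 and 76.7 CPM in the DEX litters against 63.5 and 40.7 CPM in the PBS litters, without overlap and without a test.

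The GITR gene Tnfrsf18 was carried mainly by ILC2-like cells, with 522 and 489.9 CPM in the DEX litters and 297 and 345 CPM in the PBS litters. Again the groups did not overlap, with a log2 fold change of 0.66 ± 0.08 (SE, n = 2 per group), or 1.58-fold. In cells thinned to 2000 UMIs, 58.3 and 57.3% of ILC2-like cells of the DEX litters had a UMI, against 41.2 and 48.4% of the PBS litters, and without thinning 83.7 and 83% against 75.3 and 76.7%. In the other named classes it was at most at 52.4 CPM. It was also higher in the DEX litters in endothelial-like cells, at 38.6 and 28.3 CPM against 14 and 7.16 CPM, found in 8.49% of them. The same held in mesenchymal-like cells, at 39.7 and 52.4 CPM against 25.8 and 36.6 CPM, found in 15.2% of them. The ILC2 marker Gata3 had a mean of 21.3 ± 10.7 CPM in endothelial-like and 47.5 ± 14.3 in mesenchymal-like cells, against 417 ± 16.0 in ILC2-like cells (SD, n = 4). Its groups overlapped in endothelial-like cells, and its DEX litters were the lower ones in mesenchymal-like cells. The part of free RNA or doublets in these Tnfrsf18 values was not tested.

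Tnfrsf18 was higher in both DEX litters in 5 of 5 ILC2-like sub-clusters. In sub-cluster 3 it stood at 927 and 876 CPM in the DEX litters and 440.1 and 537 CPM in the PBS litters, and its mean of 695 ± 243 CPM (SD, n = 4) was above the 281 ± 55.9 of sub-cluster 2. The log2 ratio of mean CPM between the groups ran from 0.45 in sub-cluster 1 to 0.88 in sub-cluster 3. In mast-like cells the litters overlapped, at 25.4, 11.6, 15.8 and 11.3 CPM in the order DEX-1, DEX-2, PBS-1 and PBS-2, and the log2 fold change was 0.45 ± 0.35 (adjusted p = 0.973, edgeR). In the unnamed cluster led by Gzmb and Scin they did not overlap, at 38.8, 28.0, 19.6 and 17.4 CPM in that order, and Tnfrsf18 was not tested there. Another unnamed cluster, of 29 low-depth cells, held all 8 ILC2 markers in at least 25% of cells. Its litters overlapped for Tnfrsf18, at 736, 546, 733 and 632 CPM in that order, on 10 to 14 UMIs each. For Tnfrsf9 they did not, at 552, 429, 0 and 146 CPM on at most 11 UMIs, and neither gene was tested there.

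**Figure D1:**
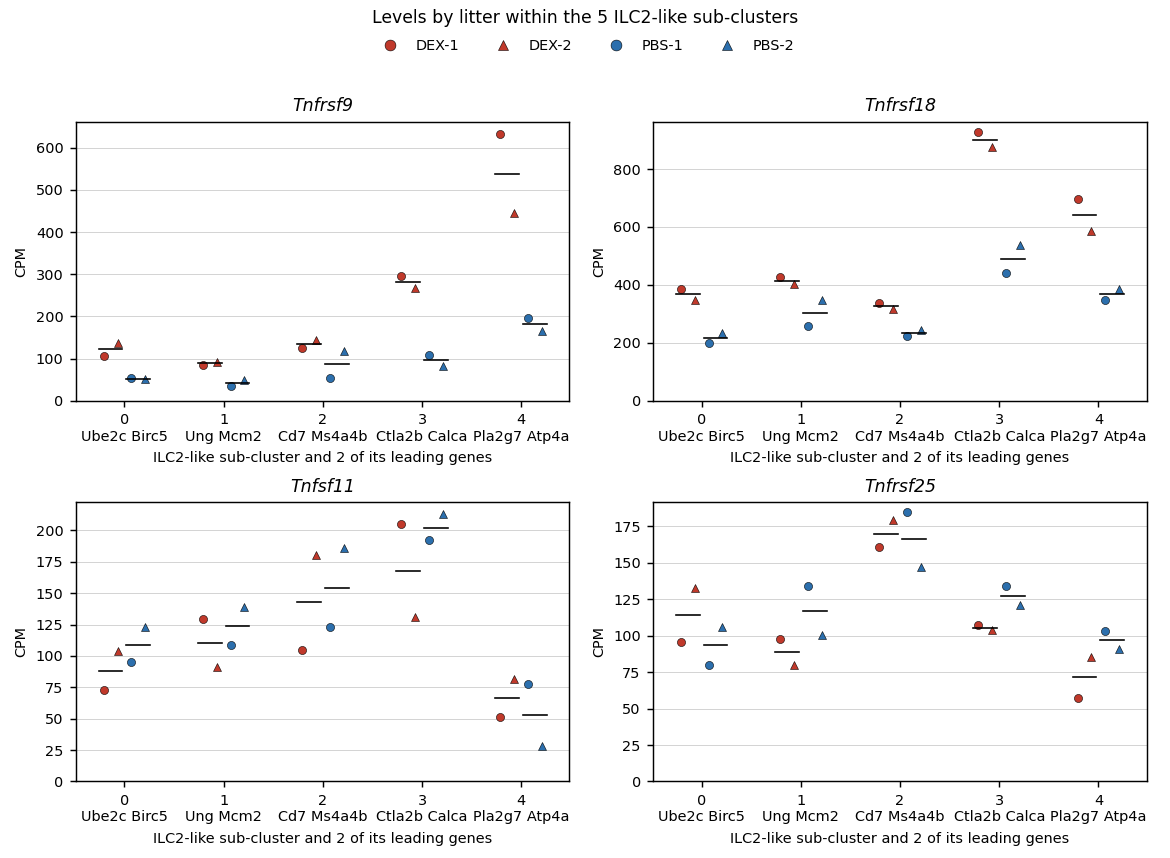
Levels in CPM of Tnfrsf9, Tnfrsf18, Tnfsf11 and Tnfrsf25 (y axes, from 0) in the 5 ILC2-like sub-clusters (x axes), with 1 symbol per litter and a line at the mean of each group. Red symbols (DEX) lie above blue ones (PBS) in every sub-cluster for Tnfrsf9 and Tnfrsf18, up to 632 CPM for Tnfrsf9 in sub-cluster 4 and 927 for Tnfrsf18 in sub-cluster 3, while those of Tnfsf11 overlap in all 5.

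Both receptors were often found in the same cells. Among thinned ILC2-like cells with a Tnfrsf9 UMI, a Tnfrsf18 UMI was found in 69.7 and 68.5% in the DEX litters and in 44.6 and 50% in the PBS litters. Among those without one it was found in 54.6 and 53.7% and in 40.7 and 48.2%. The share was higher beside Tnfrsf9 in 4 of 4 litters, by little in the PBS litters, and cells of a litter are not replicates.

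The OX40 gene Tnfrsf4 was low. ILC2-like cells held 27.0 and 20.3 CPM in the DEX litters and 26.3 and 40.5 CPM in the PBS litters. The groups overlapped, and the log2 fold change was -0.50 ± 0.20. Leaving out DEX-1 gave -0.71, leaving out PBS-1 gave -0.76 and leaving out PBS-2 gave -0.13, so that single litters decided the value. Epithelial-like cells held nearly as much, 20.8 to 24.1 CPM. Among the ILC2-like sub-clusters Tnfrsf4 was highest in sub-cluster 3, at 52.7 ± 6.41 CPM (SD, n = 4).

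Tnfrsf25, the gene of the TL1A receptor DR3, marked ILC2-like cells at 108 and 124 CPM in the DEX litters and 120.2 and 111 CPM in the PBS litters. The groups overlapped and the log2 fold change was 0.01 ± 0.10. Its mean was 168 ± 17.3 CPM (SD, n = 4) in sub-cluster 2 against 84.3 ± 19.4 in sub-cluster 4, the reverse of the order of Tnfrsf9 and Tnfrsf18 there. In sub-clusters 1, 3 and 4 the DEX litters were the lower ones, with nearest litters at 98.0 against 100.5 CPM, 107 against 121 CPM and 85.7 against 90.8 CPM. Mast-like cells held a mean of 0.388 ± 0.174 CPM, below the floor.

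Tnfsf11, which encodes RANKL, was likewise found mainly in ILC2-like cells, with 117 and 122 CPM in the DEX litters and 127 and 148 CPM in the PBS litters. Both DEX litters lay below both PBS litters, but by 5 CPM at the nearest, and the log2 fold change was -0.20 ± 0.09. In each of the 5 sub-clusters the groups overlapped, and the level ran from 59.5 ± 24.9 CPM (SD, n = 4) in sub-cluster 4 to 185 ± 37.3 in sub-cluster 3. The mean was 0.843 ± 0.580 CPM in mast-like and 13.7 ± 13.7 in endothelial-like cells, where DEX-2 alone stood at 34.1.

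Tnfrsf1b was spread over several classes at low level. ILC2-like cells held 12.7 to 15.3 CPM, mast-like cells 10.7 to 12.4 and basophil-like cells 4.15 to 7.79. The fitted log2 fold change was 0.04 ± 0.20 in ILC2-like and -0.03 ± 0.22 in mast-like cells (adjusted p = 0.999, edgeR). Leaving out an unnamed cluster of 29 low-depth cells, Tnfrsf1b was highest in an unnamed cluster of 251 cells led by S100a8, Ear2 and Wfdc17, at 60.8 and 68.1 CPM in the DEX litters and 90.6 and 65.5 CPM in the PBS litters, and the groups overlapped there.

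Tnfsf10, the TRAIL gene, was highest in endothelial-like cells among the named classes, at 51.5 and 51.7 CPM in the DEX litters and 63.1 and 57.3 CPM in the PBS litters. In ILC2-like cells it stood at 7.24, 6.34, 5.63 and 5.01 CPM and in mast-like cells at 2.04, 4.32, 5.09 and 6.77 CPM, in the same order. Thus DEX litters lay above PBS litters in ILC2-like cells and below them in mast-like cells, on 22 to 34 UMIs per litter in the former and 8 to 27 in the latter. The log2 fold change was 0.37 ± 0.28 in ILC2-like and -0.87 ± 0.42 in mast-like cells (adjusted p = 0.879, edgeR), and the difference between the 2 classes was 1.27 ± 0.53.

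Tnfrsf23, the TRAIL decoy receptor gene, was found in mast-like cells at 21.6 and 34.8 CPM in the DEX litters and 31.7 and 29.6 CPM in the PBS litters. The groups overlapped, with a log2 fold change of -0.10 ± 0.22 (adjusted p = 0.999, edgeR). Nearly all of it lay in mast-like cluster 0, with a mean of 42.5 ± 9.09 CPM (SD, n = 4) against 2.08 ± 2.20 in cluster 1. Basophil-like cells held 5.56 to 19.1 CPM. ILC2-like cells held 1.54 to 3.41 CPM, with a log2 fold change of 0.79 ± 0.45. Tnfrsf22, a close paralog, was at 3.76 to 7.91 CPM in mast-like cells, and reads that fit both genes could be split or lost in counting, which makes both levels uncertain.

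Tnfrsf13c, the BAFF receptor gene, was carried by B-like cells at 585 and 486 CPM in the DEX litters and 544 and 534 CPM in the PBS litters. The groups overlapped, with a log2 fold change of -0.02 ± 0.19 (adjusted p = 1.00, edgeR) on 35 to 57 cells per litter. Its total was 0 UMIs over all mast-like cells, which allows up to 0.189 CPM, and its level in ILC2-like cells was at most 0.792 CPM. B-like cells stood out by the B cell gene Cd79a as well, found in every one of them.

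**Figure D2:**
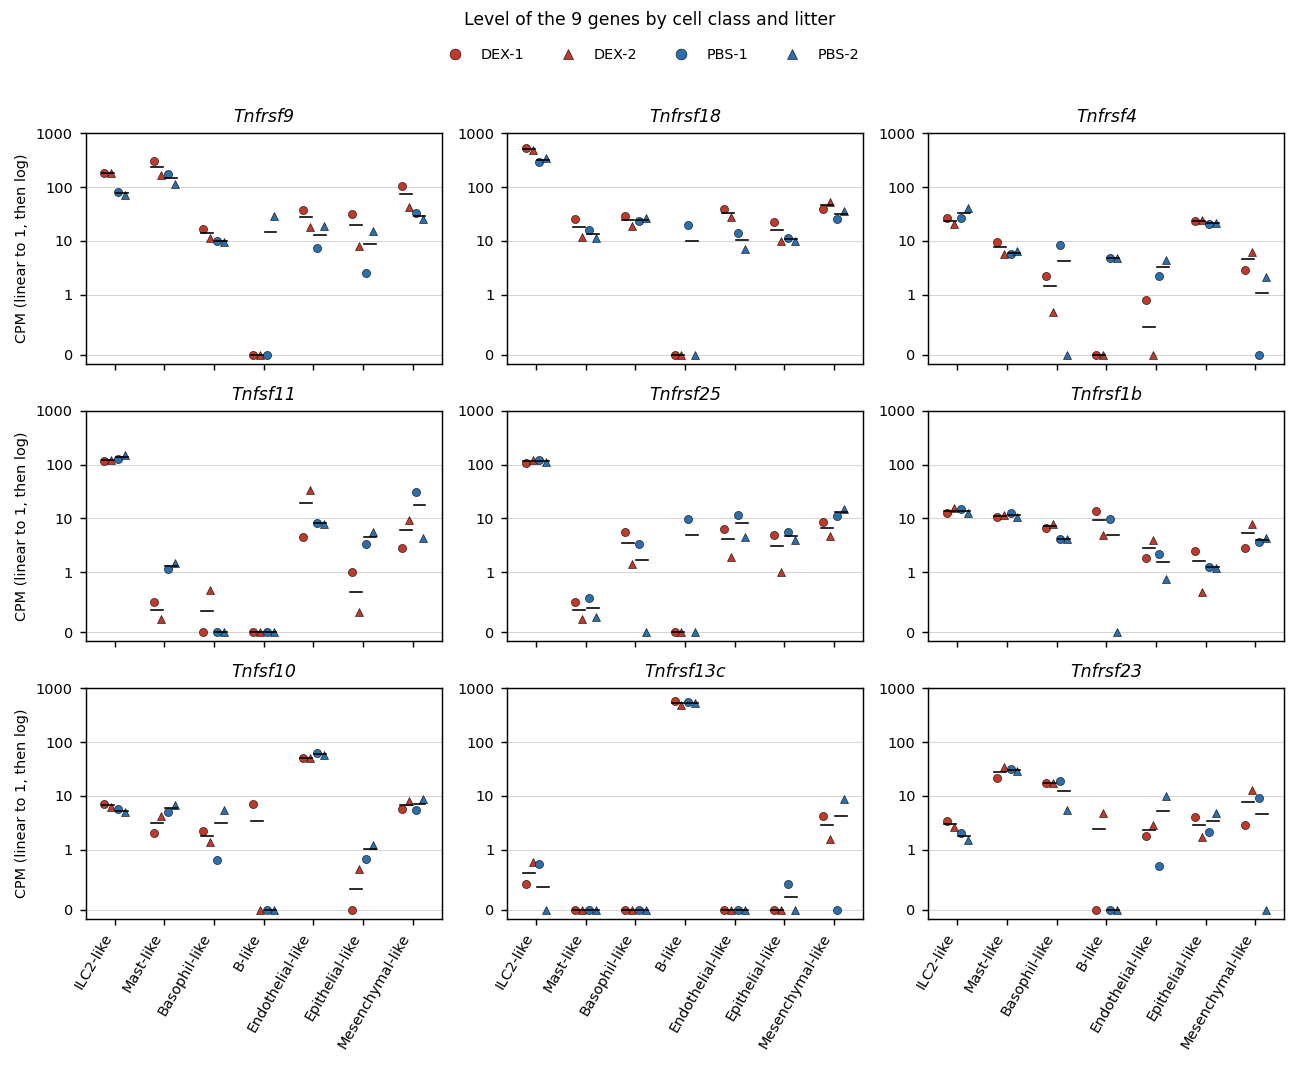
Level of each of the 9 genes in CPM (y axes, linear up to 1 and logarithmic above) by named cell class (x axes), with 1 symbol per litter and a line at the mean of each group. Tnfrsf18, Tnfsf11 and Tnfrsf25 are highest in ILC2-like cells, Tnfrsf9 in ILC2-like and mast-like, Tnfrsf13c in B-like at 486 to 585 CPM, and Tnfsf10 in endothelial-like cells at 51.5 to 63.1 CPM.

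The order of levels between classes was read against the spread over litters. For Tnfrsf9, ILC2-like cells (128 ± 60.7 CPM, SD, n = 4) and mast-like cells (189 ± 78.3) overlapped, and so did ILC2-like (28.5 ± 8.49) and epithelial-like cells (22.5 ± 1.60) for Tnfrsf4. For Tnfrsf1b the ranges of ILC2-like and mast-like cells did not overlap, 12.7 to 15.3 against 10.7 to 12.4 CPM, but the gap was smaller than either range. For Tnfrsf18, Tnfsf11 and Tnfrsf25 the lowest ILC2-like litter lay above the highest litter of every other named class. Likewise every B-like litter for Tnfrsf13c and every endothelial-like litter for Tnfsf10 lay above all litters of the other named classes.

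The comparison of DEX with PBS asked which genes differed between litters after a maternal glucocorticoid. In ILC2-like cells 8 of the 9 genes passed the filter on low counts, and 2 of these, Tnfrsf9 and Tnfrsf18, were called higher in DEX at an adjusted p under 0.05 in the fit over all genes, in which 2.36% of 10634 genes were called in either direction. Since the names were selected on these cells, and both are also on the study's list of DEX-raised genes picked from them, the count is no independent evidence. Tnfrsf4 was called as well, as lower in DEX, when DEX-1 or PBS-1 was left out. The median log2 fold change of the 8 was 0.20. In mast-like cells 6 of the 9 passed the filter and 0 were called, against 0.00955% of 10473 genes (1 gene). DESeq2 called 7 genes there. By edgeR 616 of the 10473 genes had an unadjusted p under 0.05, where a share near 0.05 would fall if no gene differed. In B-like cells only Tnfrsf13c could be tested and was not called, against 0.213% of 3294 genes.

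**Figure D3:**
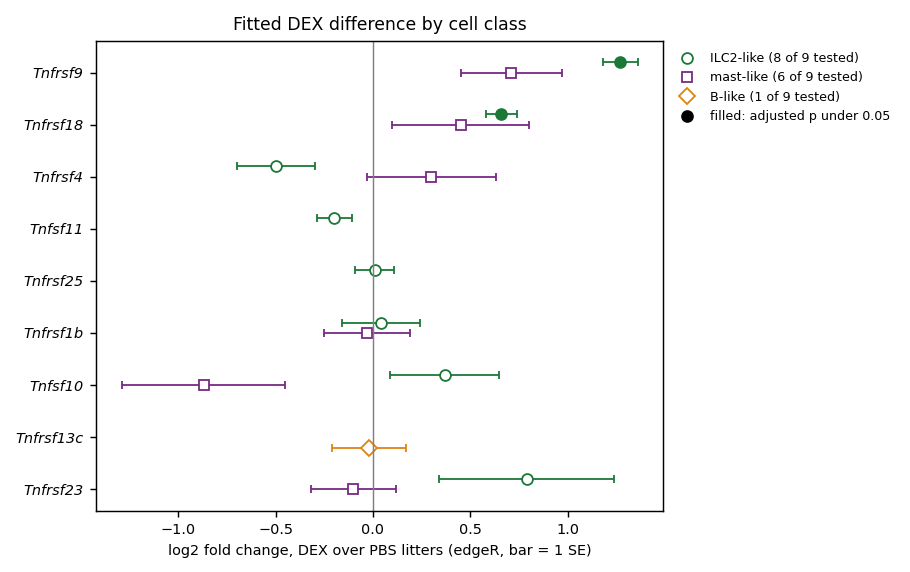
Fitted log2 fold change of DEX over PBS litters (x axis, bars of 1 SE) for the 9 genes (y axis) in ILC2-like cells (green circles), mast-like cells (purple squares) and B-like cells (orange diamond), with filled symbols at an adjusted p under 0.05. The filled symbols are Tnfrsf9 at 1.27 and Tnfrsf18 at 0.66 in ILC2-like cells.

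The difference of the DEX effect between ILC2-like and mast-like cells was fitted as the interaction of class and group, in which 0.191% of 11537 genes were called. One side of it is the ILC2-like contrast on which the names had been selected, so that the values are descriptions here too. Of the 8 genes fitted, 0 were called by edgeR. The log2 fold change in ILC2-like cells exceeded that in mast-like cells by 0.57 ± 0.23 for Tnfrsf9 and 0.23 ± 0.31 for Tnfrsf18, and the same difference was -0.81 ± 0.31 for Tnfrsf4. Neither a DEX effect that differs between these classes nor an equal one was shown by these values.

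A wider list of 73 genes, made with earlier results of these data known, held 28 receptors, 18 ligands and 27 adaptors and NF-kB genes of the pathway. In ILC2-like cells 51 passed the filter, and 3 were called higher (Tnfrsf9, Tnfrsf18 and Cd27) and 0 lower. Without the 9 genes it was 1 of 43, or 2.33%, beside the 2.36% of all genes, and the median log2 fold change was 0.05. Cd27, the receptor for CD70 on lymphocytes, stood at 60.3 and 57.6 CPM in the DEX litters and 41.4 and 41.2 CPM in the PBS litters. Its litters did not overlap, and its log2 fold change was 0.52 ± 0.11 (adjusted p = 0.0198, edgeR).

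Of the 7 ligands tested in ILC2-like cells 0 were called, with a median of -0.17, and of the 27 adaptors and NF-kB genes 0 were called, with a median of 0.07. Among the latter, Relb and Nfkb2, subunits of the non-canonical NF-kB pathway, had log2 fold changes of 0.42 ± 0.15 and 0.34 ± 0.13 (adjusted p = 0.239 and 0.241, edgeR), and Nfkbia, the inhibitor of NF-kB, 0.11 ± 0.07 (adjusted p = 0.573). In mast-like cells 47 of the 73 were tested and 0 were called, with medians of -0.03 over the receptors and -0.10 over the ligands.

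**Figure D4:**
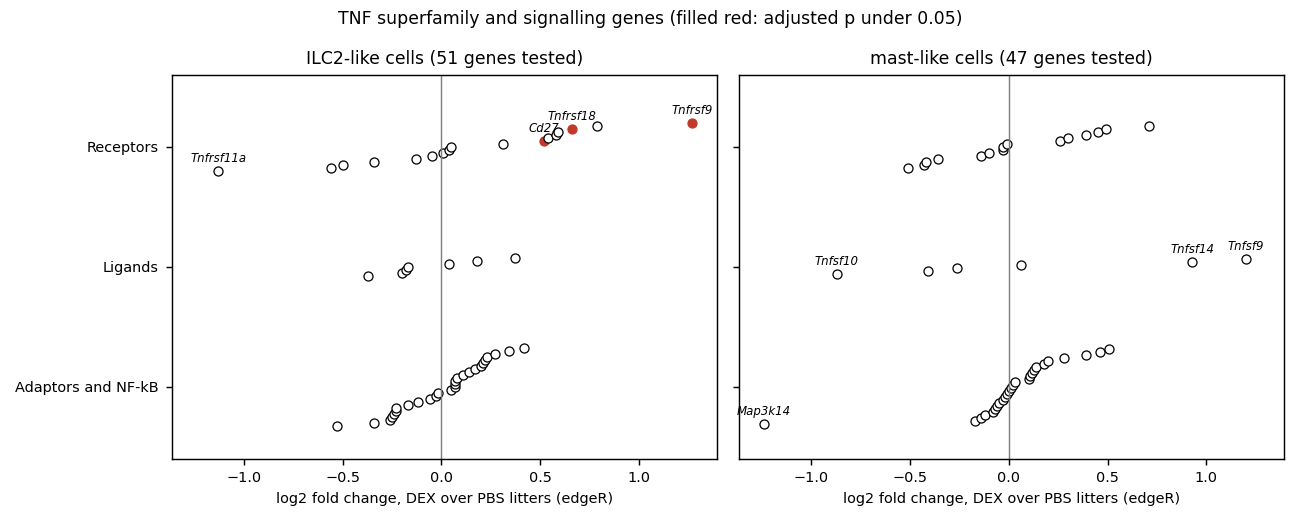
Fitted log2 fold change of DEX over PBS litters (x axes) for TNF superfamily receptors, ligands, and adaptors and NF-kB genes (y axis) in ILC2-like cells (left, 51 genes) and mast-like cells (right, 47 genes), with 1 circle per gene, ordered by value within its row, and red where the adjusted p is under 0.05. In ILC2-like cells Tnfrsf9, Tnfrsf18 and Cd27 are red, and Tnfrsf11a lies at -1.13, while in mast-like cells 0 are red.

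The binding partners were mostly low in this sort. The 4-1BB ligand gene Tnfsf9 ranged from 11.5 to 16.6 CPM in ILC2-like cells, and in mast-like cells at 7.63 and 13.4 CPM in the DEX litters and 3.39 and 5.77 CPM in the PBS litters. In the latter the DEX litters were the higher ones, with a log2 fold change of 1.20 ± 0.38 that missed the threshold (adjusted p = 0.631, edgeR). The GITR ligand gene Tnfsf18 and the OX40 ligand gene Tnfsf4 were at most at 0.213 and 0.792 CPM in ILC2-like cells and at or under the floor in mast-like cells. The TL1A gene Tnfsf15 had 0 UMIs in ILC2-like, mast-like, basophil-like and B-like cells and was at 4.24 to 7.81 CPM in epithelial-like cells.

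Tnfrsf11a, the gene of the RANKL receptor RANK, was at 6.39 and 3.43 CPM in the DEX litters and 10.7 and 11.4 CPM in the PBS litters in ILC2-like cells. Both DEX litters lay below both PBS litters, and the log2 fold change of -1.13 ± 0.28 just missed the threshold (adjusted p = 0.0561, edgeR). The decoy receptor gene Tnfrsf11b was at 12.5 to 35.2 CPM in endothelial-like cells and at 0 in ILC2-like cells. The ligand gene Tnf was at 172 to 303 CPM in mast-like and 145 to 264 in basophil-like cells, against 6.07 to 9.72 in ILC2-like cells, and Lta was at 13.0 to 21.5 CPM in the latter. The TRAIL receptor gene Tnfrsf10b ranged from 16.4 to 25.8 CPM in ILC2-like cells, and the BAFF gene Tnfsf13b at no more than 0.708 CPM in ILC2-like, mast-like, basophil-like and B-like cells.

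Genes with the most similar pattern were ranked by Pearson correlation of log2(CPM + 1) over 28 points, 7 classes in 4 litters, among 12895 genes. The points share litters and free RNA, and the values are descriptions. Tnfrsf9 was followed most closely by Jdp2 (r = 0.924), Akap6 (0.903) and Nr3c1 (0.889), the last encoding the glucocorticoid receptor. Tnfrsf18 was followed by Rora (0.926), Lmo4 (0.923) and Fhl2 (0.918), Tnfrsf4 by Igsf5, Rab15 and Dnajb13 (0.784 to 0.819), Tnfsf11 by Nrip1, Pparg and Cd96 (0.902 to 0.931), and Tnfrsf25 by Zap70, Cxcr6 and S100a4 (0.959 to 0.975). Tnfrsf1b was followed by Paxbp1, Gla and Gm12764 (0.831 to 0.839), Tnfsf10 by the endothelial genes Plxnd1 and Eng and by Slc43a3 (0.893 to 0.915), Tnfrsf13c by Gm30211 (0.993) and the B cell gene Blk (0.991), and Tnfrsf23 by Nwd1, Ccl17 and Tarm1 (0.833 to 0.907).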

How the data were processed

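The authors sequenced 10x Genomics 5′ gene expression and hashtag libraries of all litters together and counted UMIs with Cell Ranger 7 on mm10, per the submitters' processing notes. What the authors deposited is a matrix of UMI counts that were not normalized. Barcodes with at least 200 genes and at most 5% mitochondrial UMIs were kept (10409 of 10648). Litters were called with HTODemux (Seurat 5.3.0, quantile 0.99), which dropped 736 doublets and left out 2405 barcodes without a clear tag. The number in a hashtag row's name gave its antibody and so, through the labels, its litter. The hashtags, labels and methods name 2 mothers per group, and 1 legend of the study names fewer; the hashtags were followed.

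Cells were clustered with scanpy 1.11.5 (2000 variable genes, 20 components, 15 neighbours, Leiden resolution 0.5) without the TNF family genes, Gata3, Nr3c1, Il1rl1 and sex-linked genes. Clusters were named by marker genes when at least 3 markers were in 25% of cells, their mean share was at least 30% and the next type reached at most 60% of the best. Mast cell and basophil clusters, which share markers, needed a gap of 10 points instead. These limits were set after clusters were seen, and the names are rebuilt, which alone could make values differ from those of the study. UMIs were summed per litter and class and tested with the quasi-likelihood test of edgeR 4.0.16 (TMM, filterByExpr, two-sided, Benjamini-Hochberg over all genes). Fits were tested on simulated data. Same-litter doublets were not removed, except in an alternative. Genes named are the 9 members, genes of the wider list that passed a test, their binding partners and the 3 most similar genes of each, of which 1 is not reported here; Relb, Nfkb2 and Nfkbia were added after their values were seen. The members, lists and markers were chosen with earlier results of these data known. Ratios within single ILC2-like sub-clusters were added after the data were seen and carry no test.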

Additional observations from a re-analysis of the deposited data

Results flagged for a closer look

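Tnfrsf1b was picked out because its DEX and PBS litters stood apart in opposite directions in 3 of the 5 ILC2-like sub-clusters, while in the other sub-clusters, 2 and 4, they overlapped, with group means of 9.87 in DEX against 9.90 CPM in PBS and 2.14 against 5.44 CPM. In sub-cluster 1 (Ung, Mcm2) it stood at 9.29 and 15.7 CPM in the DEX litters and 20.0 and 22.5 CPM in the PBS litters, whereas in sub-cluster 0 (Ube2c, Birc5) it stood at 14.6 and 14.3 CPM against 13.3 and 8.64 CPM and in sub-cluster 3 (Ctla2b, Calca) at 19.0 and 24.8 CPM against 17.6 and 11.5 CPM. The log2 ratio of DEX to PBS means in sub-cluster 0 exceeded that in sub-cluster 1 by 1.16, and that in sub-cluster 1 differed from that in sub-cluster 3 by -1.35. The differences were not tested and rest on 9 to 30 UMIs per litter, and a count of 3 corresponds to up to 4.72 CPM in sub-cluster 1.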

How the results depend on the processing

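In ILC2-like cells the calls of Tnfrsf9 (log2 fold change 1.18 to 1.34) and Tnfrsf18 (0.55 to 0.78) held under all 16 alternatives, which changed the tool, filter, hashtag rule, doublets, depth, cycling cells, sub-cluster weights or litters. The 10% mitochondrial limit, 1 of the 16, added no ILC2-like cell, so that its fit repeated the main one. The names had been selected on these cells and the alternatives reuse the same litters, so that this is no independent evidence. The count of 251 genes called in ILC2-like cells became 118 with DESeq2, 523 with no filter on low genes, 122 in cells thinned to 2000 UMIs and 246 to 418 with 1 litter left out (418 without DEX-1). In mast-like cells the count of 1 became 7 with DESeq2, 176 with no filter, 0 with limma-voom and 0 to 27 with 1 litter left out (0 without DEX-1, 27 without DEX-2, 11 without PBS-2). In B-like cells the count of 7 became 4 with DESeq2, 91 with no filter and 26 to 78 with 1 litter left out. For the interaction the count of 22 became 104 with no filter. Litters of a group left with 1 sample were assumed to vary like the other group. With the mother number as a replicate block the counts were 618 in ILC2-like, 194 in mast-like and 30 in B-like cells. The numbers do not pair the litters by the labels, and the deviations of same-numbered litters correlated by 0.08 in ILC2-like and 0.11 in mast-like cells. Tnfrsf9 in mast-like cells passed with no filter (0.72) and with the replicate block (0.68), and ran from 0.24 to 1.08 over the alternatives. Values near 0 changed sign. Tnfrsf25 in ILC2-like cells ran from -0.11 to 0.13 with 1 litter left out, at -0.11 without DEX-2, -0.05 without PBS-2, -0.07 thinned, -0.04 outside cycling sub-clusters and -0.05 with equal sub-cluster weight, and Tnfrsf1b there was 0.28 outside cycling sub-clusters and ran from -0.11 (without DEX-2) to 0.19 (without DEX-1), at -0.08 without PBS-2. In mast-like cells, Tnfrsf18 was -0.21 and Tnfrsf23 0.19 without DEX-1, against 0.94 and -0.48 without DEX-2, and Tnfrsf1b ran from -0.11 to 0.06, at 0.04 without DEX-1 and 0.06 without PBS-1. Tnfrsf13c in B-like cells was 0.02 under the ratio rule for hashtags and ran from -0.17 to 0.12 with 1 litter left out, at 0.12 without DEX-2. At Leiden resolution 1.0, 14 of 14 levels of at least 10 CPM in ILC2-like, mast-like, basophil-like and B-like cells moved by less than 1 SD, and other classes were not compared. No mast-like cluster was cycling, so that alternative was not run there. The causes were not tested.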
